A study of Mus musculus with 10 samples.

Results

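MHC class II presentation genes were followed in RNA of the aortic arch from double-null mice (ApoE-/-,MyD88-/-) and apoE-null mice (ApoE-/-). The members were chosen by gene symbol: H2-Aa, H2-Ab1, H2-Eb1, H2-Ea, H2-DMa, H2-DMb1, H2-DMb2, H2-Oa, Cd74 and Ciita, 10 genes in all. Of these, 9 were among the 11130 named genes of the array, each with 1 probe, and H2-DMb2 had no probe. Both genotypes carry the apolipoprotein E defect, which raises plasma cholesterol and produces arterial plaques. By their labels the genotypes differ in MyD88, the adaptor of most Toll-like receptors and of the interleukin-1 receptor family. The study used 10 two-colour arrays, each with RNA of 1 double-null and 1 apoE-null mouse, and 5 mouse pairs were hybridised in both dye orientations, which makes 5 the number of replicates. Both mice were female in pair 1 and male in pairs 2 to 4, and in pair 5 the double-null mouse was male and the apoE-null one female. A high fat diet for 8 weeks is stated for 8 arrays, and the other 2 repeat mice covered by that statement. No source used here gives age, strain background or how the alleles were made. In pair 1 the labels of the 2 arrays assign mice 7 and 8 to opposite genotypes, so the genotype in each label was followed.

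MHC class II molecules are pairs of α and β chains that present peptides from endosomes to CD4 T cells, and they are made mainly by dendritic cells, B cells and activated macrophages. The invariant chain Cd74 escorts new class II molecules to the endosome, where cathepsins degrade it, and the H2-DM heterodimer then exchanges its remnant for antigenic peptide, with H2-O as the modulator of H2-DM. Transcription of these genes depends on the coactivator Ciita, which interferon-γ induces and which acts on a shared promoter module bound by RFX, CREB and NF-Y factors. In plaques, class II protein marks macrophages, dendritic cells and cytokine-exposed vascular cells.

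All values are log2 ratios of double-null over apoE-null, the reverse of the direction deposited, so a negative value means less transcript in double-null aorta. A pair value is the mean of the 2 dye orientations. Each probe with at least 3 pair values was tested against 0 with limma, and Benjamini-Hochberg adjustment ran over all 4866 such probes, with 0.05 as the threshold. The arrays held between 4581 and 7057 values for 13872 probes, and the number of pairs limits the precision. The median of all tested probes was -0.04. Myd88, as a check of the labels, fell in double-null aorta to a mean of -0.90 ± 0.22 (SD, n = 5 pairs, limma adjusted p = 0.0248) and was below 0 in 5 of 5 pairs. No probe of the array, Myd88 included, was called without pair 4, where 325 had an unadjusted p under 0.05. Apoe, disrupted in both genotypes, had -0.36 ± 0.15 (SD, n = 3 pairs) and did not pass (limma adjusted p = 0.511).

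Of the 10 members, 4 had values on all 10 arrays and were tested: Cd74, H2-Ab1, H2-Eb1 and H2-DMa. Their mean log2 ratios lay between -0.87 and -0.62. Of these 4, only H2-DMa passed the threshold, as lower in double-null aorta, and 3 did not pass. Over all probes 0.185% were called lower and 0.781% were called in either direction. At an unadjusted p under 0.05 all 4 were lower, against 5.9% of all probes. Ciita had values on 5 arrays and H2-Oa on 2, neither with a pair value. H2-Aa, H2-Ea and H2-DMb1 were blank on every array, as were 41.9% of all probes, and no source used here says why a cell is blank. Blank cells therefore say nothing of whether these 3 transcripts were present or changed.

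Cd74, the invariant chain, had log2 ratios of -1.20, -1.39, -0.51, -0.56 and -0.20 in pairs 1 to 5 on the arrays with double-null RNA in channel 1. With double-null RNA in channel 2 it had -1.29, -1.17, -0.73, -1.15 and -0.53 in the same pairs. It was below 0 on all 10 arrays, furthest in pairs 1 and 2 and least in pair 5. The pair values averaged -0.87 ± 0.40 (SD, n = 5 pairs), or 54.6% of the apoE-null level, with a 95% interval of -1.24 to -0.51. This was the lowest mean of the 4 tested members, and it narrowly missed the threshold (limma adjusted p = 0.0568). The Cd74 call depended on the fit: an array-level fit with the mouse pair as replicate block gave adjusted p = 0.0152, the 3 male pairs alone 0.0359, and the arrays with double-null RNA in channel 2 alone 0.0139. The arrays with it in channel 1 alone gave 0.119, and leaving out 1 pair at a time gave 0.0501 to 0.242, so that Cd74 passed in 4 of 18 alternatives.

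The classical class II chains were represented by both β genes. H2-Ab1 encodes the β chain of the I-A molecule. Its log2 ratios were -0.79, -1.49, -1.27, -0.64 and -0.002 in pairs 1 to 5 with double-null RNA in channel 1, and -0.46, -1.45, -0.65, -0.92 and 0.21 with it in channel 2. Pairs 1 to 4 were below 0 on both arrays, and pair 5, the pair of unlike sex, lay around 0. The mean was -0.75 ± 0.57 (SD, n = 5 pairs, 95% interval -1.22 to -0.28), and it did not pass (limma adjusted p = 0.223). Leaving out 1 pair at a time, the log2 ratio lay between -0.96 without pair 5 and -0.56 without pair 2, with limma adjusted p between 0.0560 and 0.562. In the 3 male pairs alone, where fewer probes were tested, it was -1.07 with adjusted p = 0.0194. The α chain gene of the same molecule, H2-Aa, had no value.

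H2-Eb1 encodes the β chain of the I-E molecule. With double-null RNA in channel 1 the log2 ratios were -1.43, -0.97, -0.70, -0.59 and -0.36 in pairs 1 to 5, and in channel 2 they were -0.85, -0.66, -0.43, -0.76 and -0.39. All 10 arrays were below 0. The mean was -0.71 ± 0.29 (SD, n = 5 pairs, 95% interval -1.02 to -0.41), or 61.0% of the apoE-null level, and it did not pass (limma adjusted p = 0.0657). With the mouse pair as replicate block in an array-level fit, H2-Eb1 passed at adjusted p = 0.0235, but without any 1 pair it did not, at 0.0607 to 0.265. Its partner H2-Ea, which the RefSeq annotation of the C57BL/6J assembly lists as a transcribed pseudogene, had no value. Mice of the H-2b haplotype lack the I-E α chain, so that a signal from H2-Eb1 there does not mean surface I-E.

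H2-DMa, the α chain of the peptide exchange factor H2-DM, fell 1.53-fold in double-null aorta. With double-null RNA in channel 1 the log2 ratios were -0.58, -0.23, -1.14, -0.57 and -0.08 in pairs 1 to 5. With it in channel 2 they were -0.79, -0.63, -0.29, -0.88 and -0.99. Single arrays of a pair differed by up to 0.91, but the pair values were close together, at -0.69, -0.43, -0.71, -0.73 and -0.54. The mean was -0.62 ± 0.13 (SD, n = 5 pairs, 95% interval -0.86 to -0.37, limma adjusted p = 0.0485). The call rests on this small spread, since only 7.27% of tested probes had a smaller SD, and H2-DMa was the probe with the largest p among the 38 called. Its adjusted p also depends on how many probes had a smaller p. Most of those probes differed between dye orientations (limma on the orientation differences, adjusted p under 0.05). The H2-DMa call was lost without any 1 of the 5 pairs, at adjusted p between 0.0832 and 0.207, with the log2 ratio between -0.67 and -0.59. It was also lost in the array-level fit with the replicate block (adjusted p = 0.0938). The β chain gene H2-DMb1 had no value. H2-Oa, the α chain of the modulator H2-O, had 0.41 on 1 array of pair 1 and 0.01 on 1 array of pair 5, too few for a test.

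Ciita, the transactivator of the class II genes, had log2 ratios of 0.20, -0.16, 0.27, 0.14 and -0.47 in pairs 1 to 5 on the arrays with double-null RNA in channel 1. It was above 0 in 3 pairs and below 0 in 2, lowest in pair 5. The mean was -0.0034 ± 0.31 (SD, n = 5 arrays of 1 orientation), and limma on these arrays gave a 95% interval of -0.35 to 0.34 (adjusted p = 0.993). On the same arrays Cd74 had a mean of -0.77, H2-Ab1 -0.84, H2-Eb1 -0.81 and H2-DMa -0.52. Ciita was blank on all arrays of the other orientation, so a dye effect could not be averaged out of its value. This pattern of blanks was shared by 324 probes, Ciita among them, and the arrays with double-null RNA in channel 2 held fewer values, 4581 to 5436 against 5745 to 7057 with it in channel 1.

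**Figure D1:**
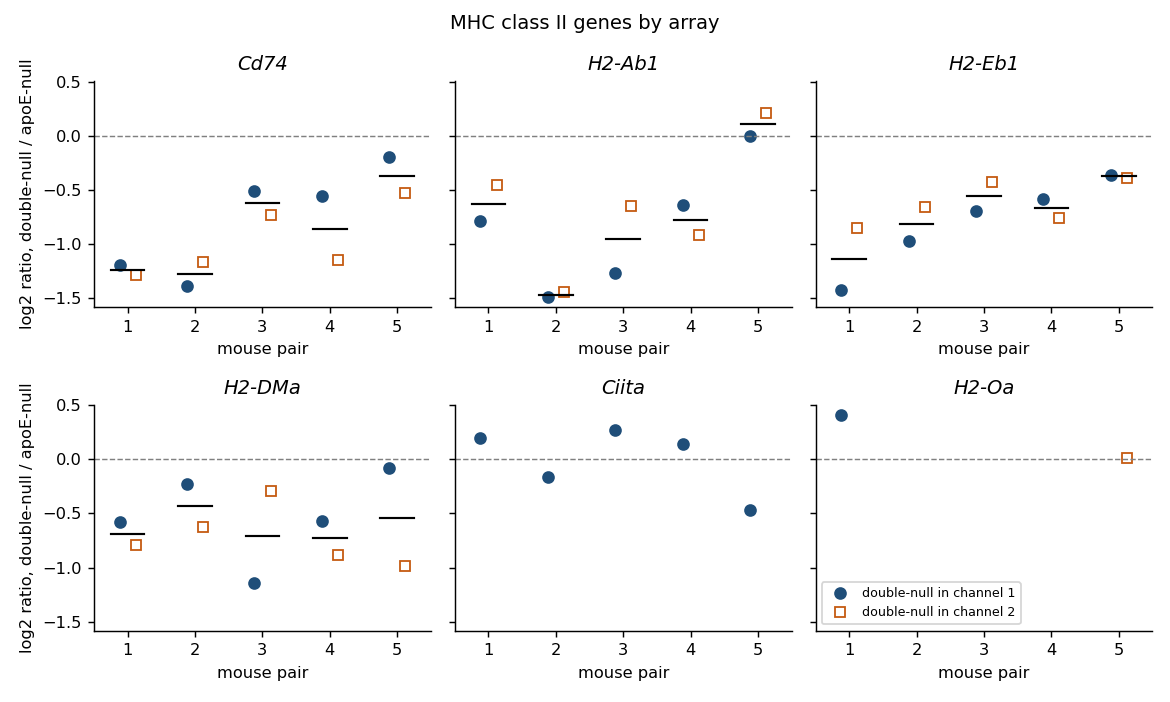
Log2 ratio of double-null over apoE-null (y axis) for 6 MHC class II genes in the 5 mouse pairs (x axis). Filled circles are arrays with double-null RNA in channel 1, open squares arrays with it in channel 2, and bars pair means. Of 40 values of Cd74, H2-Ab1, H2-Eb1 and H2-DMa, 39 lie below 0, whereas the Ciita values lie on both sides.

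Differences between neighbouring members were smaller than their spread over pairs. In order of mean log2 ratio they were Cd74, H2-Ab1, H2-Eb1 and H2-DMa. Neighbours in this order differed by -0.13 ± 0.41 for Cd74 minus H2-Ab1, -0.03 ± 0.52 for H2-Ab1 minus H2-Eb1 and -0.09 ± 0.30 for H2-Eb1 minus H2-DMa (SD, n = 5 pairs). Exact two-sided sign-flip permutation tests of these 3 differences gave p = 0.5, 0.875 and 0.5, with adjusted values of 0.75, 0.875 and 0.75. The lowest and the highest mean, Cd74 minus H2-DMa, differed by -0.26 ± 0.44 (SD, n = 5 pairs, exact p = 0.375). With 5 pairs this exact test cannot go below p = 0.0625, so none of these comparisons could pass 0.05, and they do not show that the members act alike. The members were nearest to each other in pair 4, with a range of 0.18, and furthest apart in pair 2, with a range of 1.05. In pair 2 Cd74 (-1.28) and H2-Ab1 (-1.47) were far below H2-DMa (-0.43). Across pairs, H2-Ab1 covered a range of 1.58, Cd74 0.92, H2-Eb1 0.77 and H2-DMa 0.30.

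The median of the 4 tested members was -0.91, -1.05, -0.67, -0.75 and -0.37 in pairs 1 to 5, against -0.10, -0.03, 0.00, -0.04 and -0.04 for all tested probes. Of the 4 members, 3 were below 0 in all 5 pairs, as were 6.53% of the 3612 probes with 5 pair values. Only 0.390% of tested probes had a lower mean than Cd74, 0.658% a lower mean than H2-Ab1, 0.740% than H2-Eb1 and 1.40% than H2-DMa. With double-null RNA in channel 1 and in channel 2, the means were -0.77 and -0.97 for Cd74, -0.84 and -0.65 for H2-Ab1, -0.81 and -0.62 for H2-Eb1, and -0.52 and -0.72 for H2-DMa. Limma on the orientation differences called a dye effect for none of the 4 (adjusted p between 0.504 and 0.642) and for 4.75% of all probes.

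**Figure D2:**
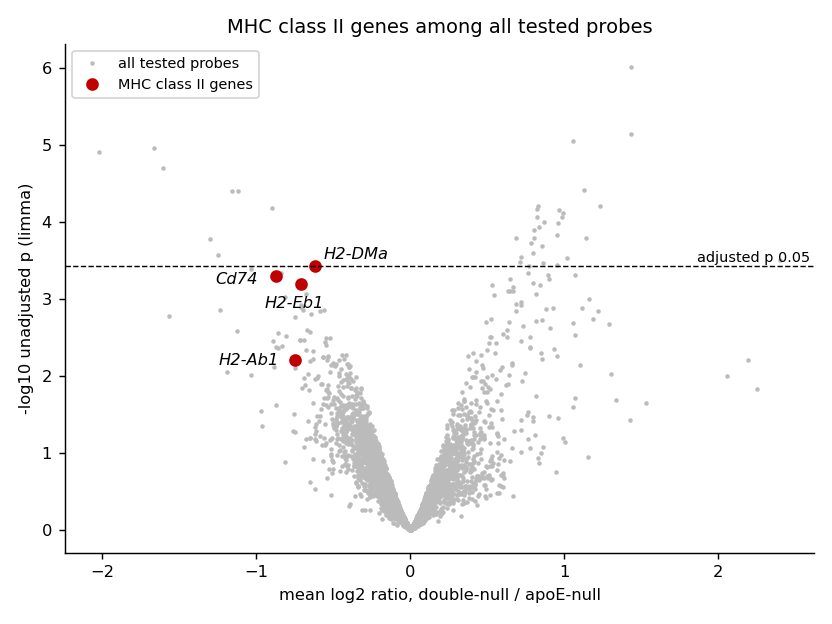
Mean log2 ratio of double-null over apoE-null (x axis) and -log10 of the unadjusted limma p (y axis) for all 4866 tested probes in grey, with the 4 tested MHC class II genes in red. The dashed line marks the adjusted threshold of 0.05; H2-DMa lies on it, Cd74 and H2-Eb1 lie just under it, and H2-Ab1, with the widest spread, lies further down.

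Some members carry the letters of the class II promoter module, which the choice by symbol did not use, and short stretches are shown so that the module of the measured H2-Eb1 can be read beside those of members without values. RefSeq windows of 250 bases before to 50 after each annotated start (GRCm38.p6) were held for 6 of the 10 members; H2-Ab1, H2-Ea, Cd74 and Ciita are named only. The letters TGATTGG, read on either strand as the core of the Y box bound by NF-Y, occurred in 5 of the 6 members and in 7.82% of 32851 windows. The letters AAC, then any 2 bases, then ATGATG, read on either strand as part of the X box bound by RFX and CREB factors, occurred in 3 members, H2-Eb1, H2-DMb1 and H2-DMb2, and in 0.137% of windows. Both sets of letters were chosen with these windows in view, and they do not overlap each other in the members. Stretches of 50 bases are given 5′ to 3′ on the strand of the gene, with matching letters in capitals.

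H2-Eb1 (chr17:34305766-34305815, plus strand): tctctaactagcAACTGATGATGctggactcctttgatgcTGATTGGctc
H2-DMb1 (chr17:34153088-34153137, plus strand): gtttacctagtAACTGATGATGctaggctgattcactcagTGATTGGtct
H2-DMb2 (chr17:34145117-34145166, plus strand): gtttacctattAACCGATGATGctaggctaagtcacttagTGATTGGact
H2-Oa (chr17:34092294-34092343, plus strand): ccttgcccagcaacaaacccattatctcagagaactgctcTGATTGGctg
H2-Aa (chr17:34287864-34287913, minus strand): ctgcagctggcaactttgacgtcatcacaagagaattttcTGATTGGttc

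In these stretches 17 bases separate the 2 matches in H2-Eb1, and 18 bases separate them in H2-DMb1 and H2-DMb2. The Y box letters began 61 bases before the annotated start in H2-Eb1, 63 in H2-DMb1, 92 in H2-DMb2, 45 in H2-Oa and 50 in H2-Aa. Neither of the 2 windows of H2-DMa held either set of letters. A match describes letters in a window and not a bound site, and of the genes shown only H2-Eb1 had a ratio on every array.

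Apart from Cd74 and Ciita, the members lie together in the MHC on chromosome 17, which allowed them to be set beside their neighbours. In RefSeq gene order 16 genes run from H2-Oa to H2-Ea, and 4 that are not members were measured. Psmb9, a subunit of the immunoproteasome, averaged -0.04 ± 0.31, and Psmb8, another such subunit, -0.07 ± 0.39. Tap1, which carries peptides into the endoplasmic reticulum for class I loading, had -0.22 ± 0.23 and the chromatin reader Brd2 -0.17 ± 0.18 (SD, n = 5 pairs for each). Limma called none of these 4 probes, and at an unadjusted p under 0.05 the number was also 0. Psmb9, Tap1 and Psmb8 lie between H2-DMa and H2-Ab1, and their means lay nearer to 0 than those of either. The difference between members and neighbours was not tested.

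**Figure D3:**
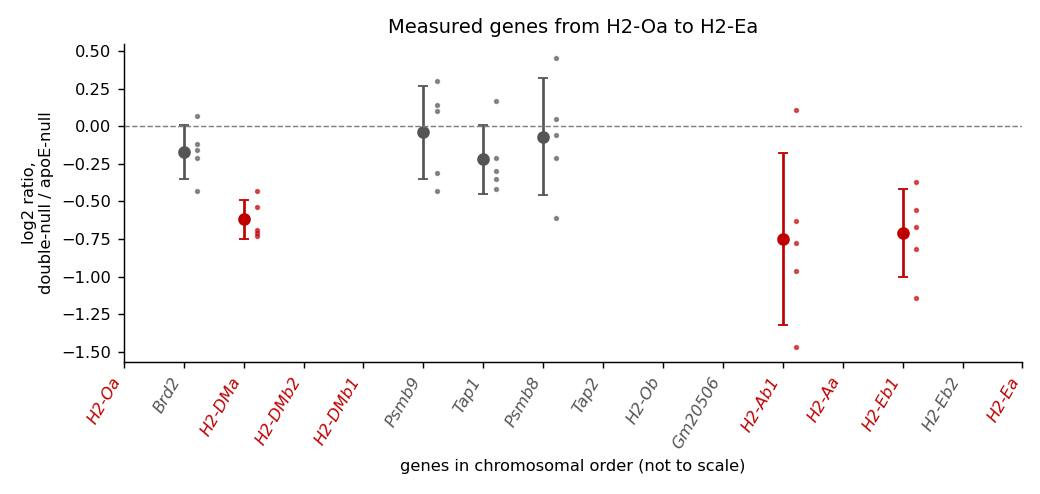
Genes from H2-Oa to H2-Ea in chromosomal order (x axis, not to scale) with the log2 ratio of double-null over apoE-null (y axis); large points are means with SD over 5 pairs, small points the pair values, and a name without points was not tested. The 3 MHC class II genes in red lie between -0.75 and -0.62, and the 4 neighbours in grey between -0.22 and -0.04.

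Other genes of the class II pathway were taken as 4 lists, in which a gene counts as measured where at least 3 pair values allowed a test. These lists and the marker lists further on were chosen with earlier results of these data known. Over all tested probes 58.7% had a mean below 0 and 10% an unadjusted p under 0.05, against which the counts in the lists are to be read. Of 9 genes listed for the processing of antigen or the invariant chain, 7 were measured, all with ratios below 0. They were mostly proteases, with a protease inhibitor among them. None of the 7 was called by limma and 1 had an unadjusted p under 0.05, a share near that of all probes. That 1 was Ctss, the cathepsin that trims the invariant chain, at -0.56 ± 0.67 (SD, n = 5 pairs, limma adjusted p = 0.479), with pair values of -1.37, -0.75, -0.75, -0.38 and 0.46. Lgmn, an asparagine-specific endopeptidase that starts this trimming, had -0.47 ± 0.63 and the cathepsin Ctsb -0.34 ± 0.46 (SD, n = 5 pairs). The list median was -0.28.

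Few upstream regulators were measured. Of 7 transcription factors of class II promoters, 3 were measured and limma called none, nor was any under an unadjusted p of 0.05. Rfxank, a subunit of RFX, had 0.24 ± 0.57 (SD, n = 3 pairs). The NF-Y subunit Nfyb had 0.07 ± 0.16 and Creb1 -0.18 ± 0.50 (SD, n = 5 pairs). Of 8 genes of interferon-γ signalling towards Ciita, 2 were measured and 1 was called, higher. The interferon-responsive activator Irf1 had -0.24 ± 0.25 (SD, n = 5 pairs, limma adjusted p = 0.545). Socs1, a feedback inhibitor of cytokine signalling, rose by 0.81 ± 0.24 on the log2 scale (SD, n = 5 pairs, limma adjusted p = 0.0319), where 0.596% of all probes were called higher. Like most probes called higher, Socs1 carried a dye effect (limma adjusted p = 1.59e-06). Its means were -0.74 with double-null RNA in channel 1 and 2.35 with it in channel 2, so its direction differs between orientations. Of 9 genes of co-stimulation, class II turnover and T cell partners, 2 were measured and limma called none, nor was any under an unadjusted p of 0.05. The checkpoint ligand Cd274 had -0.34 ± 0.49 and Cd4, the T cell receptor partner of class II, 0.07 ± 0.17 (SD, n = 5 pairs).

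The median of MHC class I genes lay nearer to 0 than that of the class II genes. Of 21 listed, Tap1, Psmb8 and Psmb9 among them, 14 were measured by 17 probes. Of these genes 12 had ratios below 0, against 58.7% of all probes, and the median was -0.17. Limma called no probe, and 2 of the 17 had an unadjusted p under 0.05, again a share near the 10% of all probes. A probe of H2-D1, a classical class I heavy chain, had -0.34 ± 0.32, the non-classical H2-T23 -0.34 ± 0.36 and H2-Q10 -0.27 ± 0.10 (SD, n = 5 pairs). H2-Q8, which the list leaves out, had -0.35 ± 0.13 (SD, n = 5 pairs, limma unadjusted p = 0.0104, adjusted p = 0.281). That unadjusted p was smaller than those of the listed class I probes. Class I heavy chains are close paralogs, and their probes may share signal. The class II median was below the class I median in all 5 pairs, by between 0.39 and 0.76 on the log2 scale, a difference that was not tested.

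Class II transcripts come from a minority of cells in the vessel wall, and in RNA of whole tissue fewer such cells and less RNA per cell cannot be told apart. Macrophage markers were also below 0, in a list chosen with earlier results of these data known. Its counts are therefore not independent of these data. Of 21 listed, 17 were measured and all 17 had ratios below 0, against 58.7% of all probes, with a median of -0.46; 1 was called lower, and 10 of 17 probes had an unadjusted p under 0.05, against 10% of all probes. The call was Cd5l, a secreted apoptosis inhibitor of macrophages, which fell 4.07-fold (log2 -2.02 ± 0.62, SD, n = 5 pairs, limma adjusted p = 0.0122), a call also lost without pair 4. Lyz2, macrophage lysozyme, had -0.81 ± 0.54 (SD, n = 5 pairs) and the lectin Clec4n -0.89 ± 0.54 (SD, n = 4 pairs), and neither passed. The macrophage medians were -1.08, -0.46, -0.72, -0.56 and 0.14 in pairs 1 to 5. The class II median was 0.59, 0.20 and 0.51 below the macrophage median in pairs 2, 4 and 5, and 0.17 and 0.05 above it in pairs 1 and 3. In pair 5 the class II median was -0.37 and the macrophage median 0.14, with H2-Ab1 at 0.11 among the class II genes and Cd5l at -1.06 among the macrophage markers. The part of macrophage or leukocyte content in the class II ratios was not tested.

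Pan-leukocyte markers had 8 of 9 measured genes below 0, against 58.7% of all probes, and a median of -0.27. Limma called none, and 3 of 10 probes had an unadjusted p under 0.05, against 10% of all probes. Their pair medians were -0.96, -0.35, -0.56, -0.13 and 0.30. Cd52, a surface glycoprotein of leukocytes, had -0.66 ± 0.61 (SD, n = 5 pairs), Ptprc, the common leukocyte antigen, -0.97 ± 1.04 (SD, n = 4 pairs) and the actin bundler Lcp1 -0.48 ± 0.57 (SD, n = 5 pairs).

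Markers of the other professional presenting cells were measured thinly. Of 14 dendritic cell markers 4 were measured, with ratios from -0.45 to -0.04 and a median of -0.22. Irf8, a transcription factor of the lineage, had -0.45 ± 0.60, the maturation marker Cd83 -0.30 ± 0.46 and the integrin Itgax -0.15 ± 0.74 (SD, n = 5 pairs). Of 12 B cell markers 3 were measured, among them Cd22, a B cell lectin, at -0.43 ± 0.56, and the immunoglobulin gene Ighm at -0.22 ± 0.64 (SD, n = 5 pairs), while Cd79b, a receptor signalling chain, had 0.28 ± 0.21 (SD, n = 4 pairs). Of 13 T cell markers only Il7r, a cytokine receptor, was measured, at -0.05 ± 0.74 (SD, n = 5 pairs), while 4 had too few values for a test and 6 were blank on every array. Limma called none of these dendritic, B and T cell probes, and none had an unadjusted p under 0.05.

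Among cells of the vessel wall, smooth muscle, endothelial and fibroblast markers had medians of -0.17, -0.08 and -0.21 over 6, 6 and 8 measured genes, and adipocyte markers 0.46 over 6, without a call by limma in any of these lists and with 1, 0, 1 and 0 probes at an unadjusted p under 0.05. Smtn, a contractile protein of smooth muscle, had -0.35 ± 0.28 on 1 probe and -0.11 ± 0.31 on another (SD, n = 5 pairs). Of the 6 endothelial genes 4 were below 0, among them the receptor Eng at -0.19 ± 0.39 and the secreted factor Egfl7 at -0.14 ± 0.20, while the receptor Kdr had 0.24 ± 0.49 (SD, n = 5 pairs). Fibroblast markers had 6 of 8 genes below 0, against 58.7% of all probes. The lowest was Lum at -0.69 ± 0.44 (SD, n = 5 pairs), the 1 fibroblast probe at an unadjusted p under 0.05. The adipokine Adipoq had 0.65 ± 1.19 (SD, n = 5 pairs). Smooth muscle and endothelial markers, which define the labelled tissue, were thus measured, although ratios give no levels. Adipocyte medians were 2.10, -0.17, -0.38, 1.14 and -0.50 in pairs 1 to 5. They were highest in pairs 1 and 4 and lowest in pair 5, where the class II median was nearest to 0. The class II median was lowest in pair 2, at -1.05, where the adipocyte median was -0.17. The part of adipose tissue in the class II ratios was not tested.

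**Figure D4:**
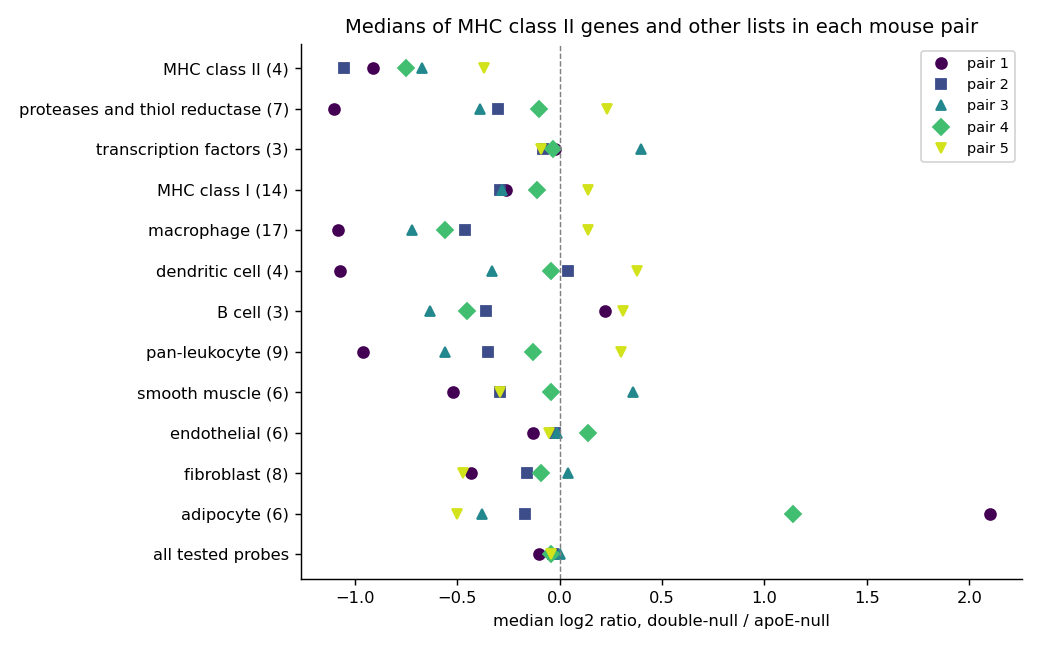
Median log2 ratio of double-null over apoE-null (x axis) in each of the 5 mouse pairs for the 4 tested MHC class II genes and for lists with at least 3 measured genes (number in brackets) and all tested probes (rows). The class II medians lie below 0 in all 5 pairs, between -1.05 and -0.37. In pair 5 the protease, class I, macrophage, dendritic cell, B cell and pan-leukocyte medians lie above 0, and those of the other lists below 0.

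The genes whose pair values lay nearest to the class II median profile were taken from 3294 probes of other genes with 5 pair values, by the mean absolute difference over the 5 pairs. They were Casp4 (0.140), Rcc1l (0.141), Selenop (0.167), Lum (0.201), Meak7 (0.233) and Tnfaip8l2 (0.236), against a median distance of 0.71. The members themselves lay at 0.129 for H2-Eb1, 0.143 for Cd74, 0.218 for H2-DMa and 0.301 for H2-Ab1, each of which enters that median. Casp4, an inflammatory caspase, averaged -0.65 ± 0.48 (SD, n = 5 pairs, limma adjusted p = 0.223). Selenop, a selenium carrier, had -0.58 ± 0.24 (SD, n = 5 pairs). Lum, a small proteoglycan of the matrix and a listed fibroblast marker, had -0.69 ± 0.44 (SD, n = 5 pairs). None of the 6 passed. The likeness was described over 5 pairs only.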

How the data were processed

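The authors amplified aortic RNA with T7 polymerase, labelled it chemically, hybridised 1 genotype per channel and analysed GenePix scans in GeneSpring, per the labels. The authors' values are channel ratios on the log2 scale, apoE-null over double-null per the labels; the lowest is the log2 of 0.01. No source used here gives the normalization, the layout or the filter behind blank cells (49.1% to 67.0% of an array). Array medians lay between -0.01 and 0.09 and were kept. Signs were turned and the 2 arrays of a pair, which name the same mice, were averaged; the pairing comes from the mice named in the labels. The spread behind each p-value is that between mouse pairs. limma 3.58.1 (lmFit, eBayes, two-sided) in R 4.3.3 tested each probe with at least 3 pair values, and a dye effect was tested on orientation differences in the same way. The fit was tested on simulated data.

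Gene symbols are those of the platform table, brought up to date with RefSeq (GRCm38.p6) by Entrez number; 12143 probes had 1 symbol, 49 several and 1680 none, and 12009 symbols matched. Probes of a gene were averaged for list medians. The members and lists were chosen with earlier results of these data known. Named were all members, Myd88, Apoe, the called genes of each list and otherwise up to 3 with the smallest p, the 6 nearest profiles and, by position, the neighbours in gene order. For some marker lists fewer are printed, and H2-Q8 was named outside this rule. Alternatives covered left-out pairs, the replicate block, orientation, scaling, filters and sex. Motif letters were chosen with the promoters in view.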

Additional observations from a re-analysis of the deposited data

Results flagged for a closer look

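Of 25 groups of 5 values examined for a value far from the others, 1 was flagged, and chance flags about 1 in 20. The median of the transcription factors of class II promoters was 0.40 in pair 3, against -0.09 to -0.02 in the other pairs. Only Nfyb and Creb1 had a value in that pair, as was also the case in pair 2, where the median was -0.08. No array or pair value of Cd74, H2-Ab1, H2-Eb1, H2-DMa or Ciita was flagged.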

How the results depend on the processing

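Cd74, H2-Ab1, H2-Eb1 and H2-DMa stayed below 0 under all 18 alternatives run, with ranges of -1.0 to -0.77, -1.07 to -0.56, -0.81 to -0.61 and -0.72 to -0.52. Their calls were less stable. Limma called 1 of the 4 lower, and 0 without any 1 of the pairs. It called 0 when pair values from 1 array were allowed, 0 with probes of 2 or more pair values, 0 with array medians subtracted, 0 after quantile normalization between arrays and 0 with double-null RNA in channel 1 only. In each of these settings all 4 had an unadjusted p under 0.05. It called 2 with the male pairs alone, Cd74 and H2-Ab1. The array-level fit with the mouse pair as replicate block called 2, Cd74 and H2-Eb1, and a fit with that block and dye orientation as a term, added after the data were seen, also called 2, with adjusted p of 0.0109 and 0.0156.

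Over all probes 38 were called, 29 higher and 9 lower. Most of the 29 called higher also carried a dye effect (limma on the orientation differences, adjusted p under 0.05), whereas most of the 9 called lower did not. Leaving out each pair gave 0 to 25 calls, with 325 to 576 probes at an unadjusted p under 0.05. The count was 73 with the block and the orientation term, 59 and 119 with double-null RNA in channel 1 and in channel 2 alone, and 16 after quantile normalization, 8 higher and 8 lower. With the block alone it was 35, 14 higher and 21 lower. The cause of these shifts was not tested.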
